A study of Homo sapiens with 10 samples.

Results

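The nuclear-encoded subunits of the mitochondrial oxidative phosphorylation complexes were followed in human BJ cells treated with nutlin-3a. Members were the transcripts, listed in both deposited tables, whose symbol began with NDUFA, NDUFB, NDUFC, NDUFS or NDUFV and a digit, was NDUFAB1, or began with UQCR, with COX4 to COX8 or with ATP5. The rule, which reads symbols alone, took 72 of 11258 transcripts. By symbol, 35 belonged to complex I, 8 to complex III, 13 to complex IV and 16 to complex V. 70 of the 72 reached 5 FPKM (fragments per kilobase of transcript, scaled to the library's mapped reads) in 1 library or more of both RNA-Seq and Ribo-Seq, as did 7015 transcripts in all, and these are the tested genes below.

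BJ cells are human primary fibroblasts, here immortalized with telomerase (hTERT), and nutlin-3a is an MDM2 inhibitor through which p53 accumulates. Poly(A) RNA was profiled by RNA-Seq and ribosome-protected fragments by Ribo-Seq in untreated control cells and after 2 h, 4 h, 6 h and 19 h of nutlin-3a. There was 1 library per time and assay, 10 in all, so the spread between cultures is unknown and no test between conditions was possible. FPKM are shares of a library, so neither fewer cells nor a loss of RNA common to all transcripts shows in them. Each change is a log2 ratio to the control of that assay, given with the standard error that read counting alone would produce (± SE). A gene was called when it passed 1.5-fold.

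Oxidative phosphorylation couples the oxidation of NADH and succinate to ATP synthesis. Complexes I, III and IV pass electrons to oxygen and pump protons across the inner mitochondrial membrane, and complex V, the ATP synthase, lets the protons back through a rotating ring of c subunits to drive the catalytic F1 head. Cytochrome b of complex III, the catalytic core of complex IV, part of complex I and part of the membrane sector of complex V are encoded in mitochondrial DNA. The remaining subunits, described here, are made on cytosolic ribosomes and imported. The 13 mitochondrially encoded subunit genes were not analysed here.

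Read totals recovered from the values were 23845553 to 27554281 per RNA-Seq library and 7744901 to 14460729 per Ribo-Seq library, with the 19 h Ribo-Seq library the shallowest. A median member had 1212 reads in the control RNA-Seq library, 1476.5 in control Ribo-Seq and 698.5 in Ribo-Seq at 19 h. All 10 fibroblast markers were above 5 FPKM at every time, with a summed RNA level of 9896 to 13233 FPKM. Of 6 epithelial markers, 2 keratins reached 5 FPKM, with a sum over the list of 243 to 327 FPKM, and no endothelial or blood cell marker reached 1 FPKM in RNA-Seq. The p53 targets CDKN1A and MDM2 rose by 4.26 and 4.13 on the log2 scale in RNA at 19 h. Over all tested genes the median change was within 0.1 of 0 except for ribosome density, 0.10 at 4 h and -0.19 at 19 h, and translation efficiency (TE, ribosome density over RNA level), 0.18 at 4 h.

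RNA levels of the subunit genes moved little. No member was called in RNA at any time, against 28.6% of all tested genes called at 1 time or more. The background share of tested genes called lower in RNA at 2, 4, 6 and 19 h was 0.214%, 3.58%, 11.6% and 14.6%, and called higher 2.08%, 3.51%, 5.74% and 7.13%. The member nearest to a call was COX4NB at 19 h, with -0.54 ± 0.080, and the largest increase was that of NDUFC1 at 19 h, 0.52 ± 0.072. At the same times the median RNA change of the 70 was -0.12, -0.045, 0.18 and -0.033, beside -0.045, -0.074, -0.0024 and -0.067 over all tested genes. At 6 h, 63 of 70 members lay above their control level, while 61 of 70 lay below it at 2 h, in each case by less than 1.5-fold. With the 2 h library as the baseline in place of the control, NDUFC1 was called higher in RNA at 6 h and 19 h, and no other member was called.

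In the control libraries the subunit transcripts were abundant and densely occupied. Their median was 47.3 FPKM in RNA and 121.9 FPKM in ribosome density, against 20.1 and 15.6 FPKM over all tested genes. TE in control was above 1 for all 70 members, with a median of 2.54-fold, where 2576 of 7015 tested genes were above 1 and the median was 0.83-fold. FPKM here are per kilobase of the whole transcript, so a short coding region in a long transcript, as in ATP5G3 (5484 nt), ATP5E (3665 nt) or NDUFS7 (3871 nt), gives a lower level than the same number of reads over a short transcript. The members were short, with a median of 945 nt beside 2597.5 nt for all tested genes, and non-members of at most that length (378 genes) had a median control TE of 2.17-fold.

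Ribosome density and TE fell for a part of the subunit genes. Density lay below control for 62 of 70 members at 2 h, 51 of them beyond the counting interval, but most calls were at 6 h and 19 h. The median density change over all tested genes at 2 h was 0.016, and the counting interval leaves out the spread between libraries. Over all tested genes, density at 2 h was lower for shorter transcripts. With that trend removed, the members' median at 2 h was -0.081, beside 0.025 over all tested genes. Density was called lower for 3, 0, 11 and 26 of the 70 members in time order, where 2.72%, 3.26%, 19% and 29.8% of all tested genes were called lower. The 11 and 26 members are 15.7% and 37.1% of the 70, the first below and the second above the background share. Density was called higher for 0, 2, 1 and 1 members, with background shares of 6.96%, 10.4%, 15% and 15%. TE was called lower for 1, 0, 23 and 23 members, where 1.78%, 0.713%, 12.3% and 15.6% of tested genes were called lower. The 23 members called at 6 h and the 23 at 19 h are each 32.9% of the 70. TE was called higher for 0, 3, 1 and 0 members, against 5.39%, 9.24%, 13.3% and 9% of tested genes. The members' median TE changes in time order were -0.14, 0.096, -0.37 and -0.42, and those of all tested genes 0.045, 0.18, 0.0021 and -0.067. For density the members' medians were -0.25, 0.059, -0.18 and -0.47.

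These shares depend on the baseline and on the call. Against the 2 h library instead of the control, TE was called lower for 6 of 70 members at 6 h and 5 at 19 h, with 8.45% and 10.2% of all tested genes called in the same way, so the members' share was close to the background at 6 h and below it at 19 h. At 2-fold, 1 and 4 members were called lower in TE, beside 2.54% and 4.21% of tested genes. Density at 19 h was called lower for 5 members from the 2 h library and for 14 after centring on all tested genes, with 26.4% and 22.1% of tested genes called. At 2-fold, 7 members were called lower in density at 19 h, beside 14.9% of tested genes, and the members' share lay below the background share under each of these alternatives. With the study's sliding cut-off by expression level, TE was called lower for 2 and 3 members at 6 h and 19 h, beside 3.02% and 5.32% of tested genes, and density for 0 at both times, beside 4.55% and 5.23%. From the 2 h library the median TE changes were -0.25 at 6 h and -0.27 at 19 h (all tested genes -0.052 and -0.13), whereas the median density changes were 0.038 and -0.20 (all tested genes -0.056 and -0.21).

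**Figure D1:**
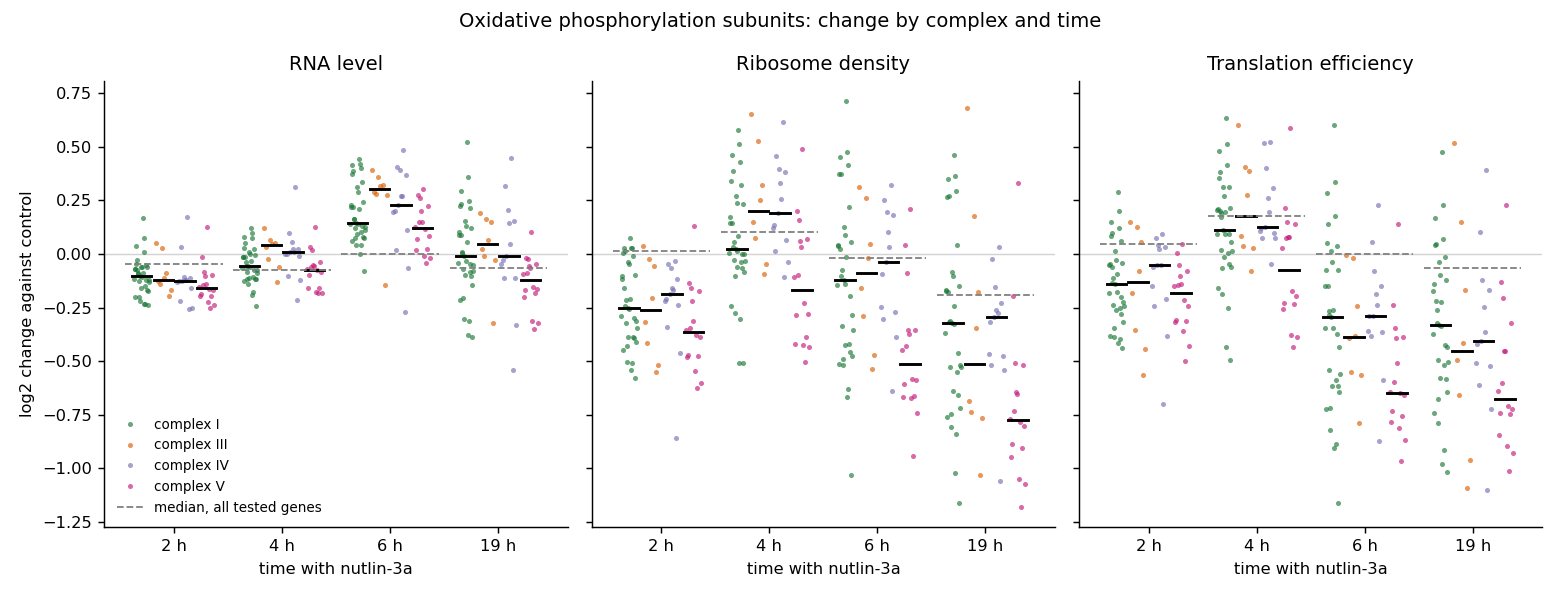
Log2 change against the control library of the same assay (vertical axis) at 4 times, for RNA level, ribosome density and TE; each point is a subunit gene, coloured by complex, black bars are complex medians and dashed grey lines the median of all 7015 tested genes. RNA changes of all 70 members stay within 1.5-fold, and the complex V medians are the lowest of the 4 complexes in density and TE at 6 h and 19 h.

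By complex, complex V had the lowest median TE change, -0.65 at 6 h and -0.68 at 19 h over 16 genes. Complex III (8 genes) stood at -0.39 and -0.45, complex IV (13) at -0.29 and -0.41 and complex I (33) at -0.29 and -0.33. TE was called lower at 19 h for 10 of 16 complex V genes, 3 of 8 in complex III, 3 of 13 in complex IV and 7 of 33 in complex I. The share of all tested genes called lower in TE at 19 h was 15.6%. 18 members were called lower in TE at both 6 h and 19 h, and 9 of these belong to complex V. How many of all tested genes were called at both times was not counted. Both calls use the same control libraries, so they are not independent. Summed over its genes, the ribosome density of complex V went from 3289 FPKM in control to 2573, 2999.9, 2454 and 2044 FPKM in the treated libraries, while its summed RNA level was 1713, 1557, 1605, 1858 and 1537 FPKM. The 19 h density sum was thus lower by 0.69 on the log2 scale, whereas the sums of complexes I, III and IV were lower by 0.27, 0.43 and 0.26. From the 2 h library, the median TE change of complex V at 19 h was -0.44, and those of complexes I, III and IV were -0.23, -0.19 and -0.28, while 1 of 16 complex V genes was called lower.

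Transcript length moved with these changes, and its part in them was not tested beyond the values given here. Over all tested genes the TE change at 19 h was higher by 0.15 on the log2 scale for each doubling of length, and at 6 h by 0.16, so short transcripts were lower. For density the slope per doubling was 0.15, -0.0029, 0.11 and 0.16 at 2, 4, 6 and 19 h. Non-members no longer than the members' median length had median TE changes of -0.23 at 6 h and -0.31 at 19 h, and -0.15 and -0.22 without ribosomal protein genes of either compartment. With the linear trend over log2 length removed, the members had medians of -0.13 (6 h) and -0.24 (19 h) in TE, beside 0.017 and -0.063 over all tested genes. In density the members' medians were then -0.025 (6 h) and -0.25 (19 h), close to the -0.024 and -0.19 of all tested genes. TE was then called lower for 9 members at 6 h and 12 at 19 h, in place of 23 and 23, beside 11.97% and 15.6% of tested genes with a length, a count added once the data had been seen. For complex V these medians were -0.40 and -0.52, with 4 and 6 of 16 genes called lower in place of 10 and 10, and for complex I they were -0.053 and -0.090. Among the 70 members themselves length and TE change were nearly unrelated (Pearson r = 0.0017 at 6 h and 0.056 at 19 h, Spearman's rho = -0.015 and 0.090, across genes measured in the same libraries).

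**Figure D2:**
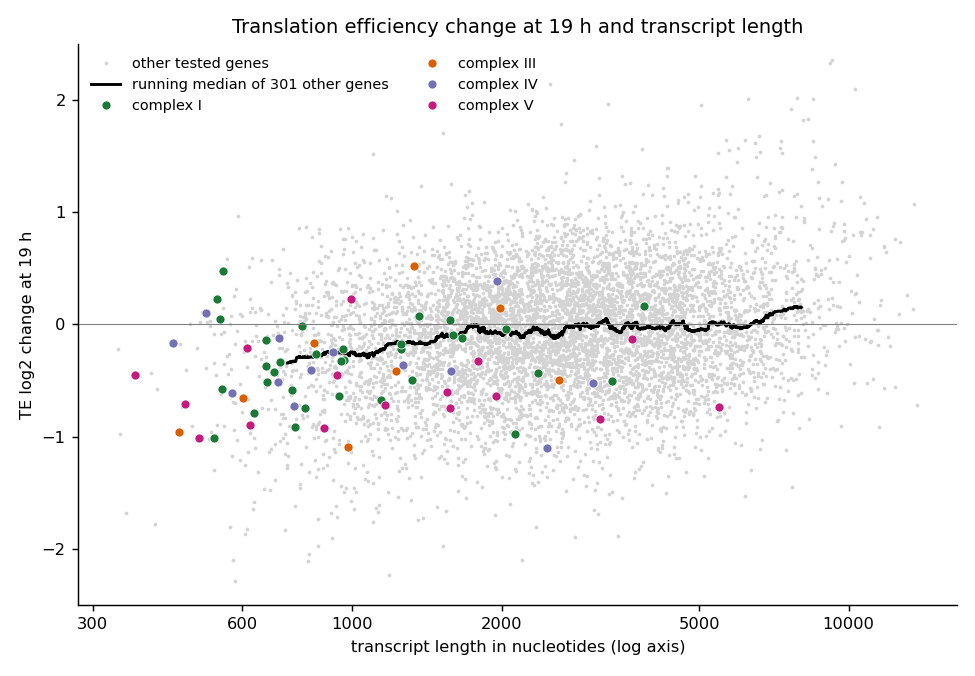
TE log2 change at 19 h (vertical axis) against transcript length in nucleotides (horizontal log axis); grey points are other tested genes, of which 6 lie outside the frame, the black line is their running median along length and coloured points are the subunit genes by complex. 15 of the 16 complex V genes lie below 0.

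The catalytic F1 head of ATP synthase holds α and β subunits around a central γ shaft, with δ and ε at its foot. Its α subunit gene ATP5A1 stood at 257, 233, 231, 285 and 242 FPKM in RNA from control to 19 h. Its ribosome density was 296, 254, 227, 198 and 179 FPKM over the same libraries, lower in each later library than in the one before, and TE fell by log2 changes of -0.73 ± 0.034 at 6 h and -0.64 ± 0.038 at 19 h. The β subunit gene ATP5B, the most abundant complex V transcript, had 352, 332, 339, 356 and 281 FPKM in RNA. Its density was 450.0, 410.0, 369, 347 and 288 FPKM, and its TE change, -0.32 ± 0.032 at 19 h, did not reach the call. The ATP5A1 change was lower than that of ATP5B by 0.32 (95% counting interval of the difference -0.41 to -0.22). Both genes thus kept most of their RNA while ribosome density declined from library to library.

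The γ subunit gene ATP5C1 and the δ subunit gene ATP5D, whose products sit together in the rotor, differed in density. ATP5C1 had 112, 97.8, 99.03, 111 and 87.8 FPKM in RNA and a density of 162, 128, 152, 106 and 77.2 FPKM. ATP5D had 38.1, 41.5, 41.5, 39.9 and 40.8 FPKM in RNA and a density of 130.1, 142, 149.7, 150.4 and 164 FPKM. The density change at 19 h was -1.07 ± 0.063 for ATP5C1, a fall to 0.476 of control, and 0.33 ± 0.055 for ATP5D, which was not called. The ratio of ATP5D to ATP5C1 was 0.80 in control density and 2.12 at 19 h, with 1.12, 0.99 and 1.41 between, and in RNA it was 0.34 in control and 0.46 at 19 h. The difference between their TE changes at 19 h was -0.95 (95% counting interval -1.17 to -0.73), and at 4 h it was 0.00060 (-0.19 to 0.20). The ε subunit gene ATP5E had a density of 88.6, 78.5, 124, 91.04 and 77.4 FPKM, highest at 4 h, with a TE change of 0.59 ± 0.050 there and -0.13 ± 0.055 at 19 h. A related processed copy, ATP5EP2, was listed in the RNA-Seq table alone at 2.51 to 3.69 FPKM, and reads shared between near-identical copies cannot be assigned with certainty.

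**Figure D3:**
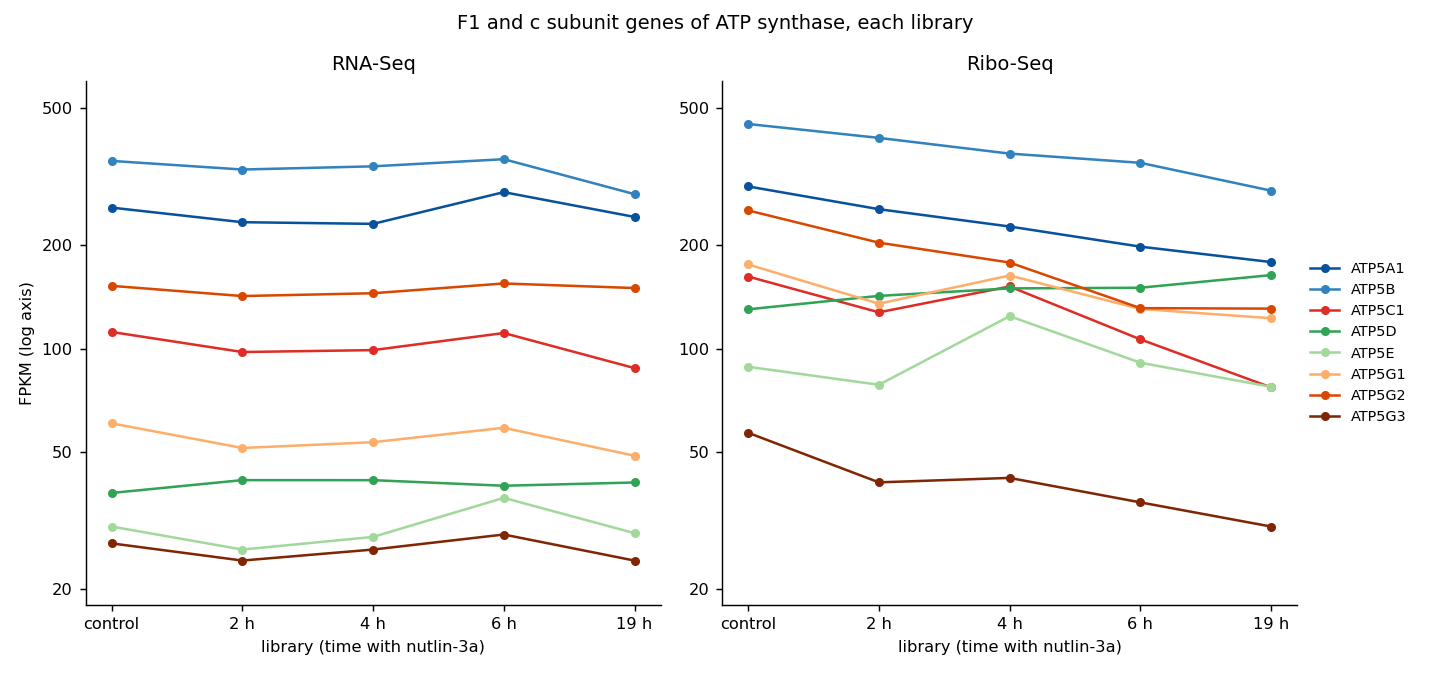
FPKM (log axis) of the F1 genes ATP5A1, ATP5B, ATP5C1, ATP5D and ATP5E and of the 3 c subunit genes in each of the 5 RNA-Seq libraries (left) and Ribo-Seq libraries (right); each point is 1 library, so no error bar is drawn. RNA lines are nearly level, while in Ribo-Seq ATP5C1 crosses below ATP5D and ATP5G2 comes down to the level of ATP5G1 by 6 h.

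The c ring is built from 1 mature protein encoded by 3 genes, ATP5G1, ATP5G2 and ATP5G3, which differ in their import sequences. ATP5G2 carried most of their RNA, 152, 142, 145, 155 and 150.1 FPKM, with a density of 252, 203, 178, 131 and 131 FPKM. ATP5G1 had 60.7, 51.4, 53.5, 58.9 and 48.8 FPKM in RNA and a density of 176, 135, 163, 130.5 and 123 FPKM. ATP5G3 had 27.2, 24.2, 26.1, 28.8 and 24.2 FPKM in RNA and a density of 56.9, 40.9, 42.1, 35.7 and 30.4 FPKM. TE fell for ATP5G2, by log2 changes of -0.97 ± 0.062 at 6 h and -0.93 ± 0.066 at 19 h, and for ATP5G3, by log2 changes of -0.76 ± 0.052 and -0.74 ± 0.058, but was not called for ATP5G1, at -0.39 ± 0.093 and -0.21 ± 0.10. At 19 h the ATP5G2 change was below that of ATP5G1 by 0.72 (95% counting interval -0.96 to -0.48), and at 2 h the interval of this difference included 0 (-0.28 to 0.14). The share of ATP5G2 in the summed density of the 3 genes was 52.0%, 53.6%, 46.4%, 44.1% and 46.1% from control to 19 h, and its share of the summed RNA was 63.4% to 67.3%. ATP5G1 held 43.9% of the density at 6 h, nearly the share of ATP5G2, although ATP5G2 RNA was the higher in all libraries.

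For the stalk and membrane part of ATP synthase, 7 genes taken by the rule were listed (ATP5F1, ATP5H, ATP5I, ATP5J, ATP5J2, ATP5L and ATP5O). All 7 had lower TE than control at 6 h and 19 h, with medians of -0.66 and -0.74. At each time 5 of the 7 were called, where 12.3% (6 h) and 15.6% (19 h) of all tested genes were called lower. Their median length was 622 nt, beside 2597.5 nt for all tested genes. Of these 7, the largest change at 19 h was in ATP5J, coupling factor 6 of the peripheral stalk. Its RNA was 46.97, 41.03, 44.3, 50.97 and 41.9 FPKM and its density 251, 163, 206, 158 and 111 FPKM, so that density fell by log2 changes of -1.18 ± 0.080 and TE by -1.01 ± 0.12 at 19 h. ATP5H, the stalk subunit d, had a density of 267, 183, 200.2, 160.2 and 129 FPKM and a TE change of -0.89 ± 0.079. ATP5F1, the stalk subunit b, had a density of 59.8, 43.02, 50.97, 39.9 and 32.3 FPKM and a TE change of -0.84 ± 0.069. In each of these 3 genes the control library held the highest density and the 19 h library the lowest. ATP5SL, the least abundant complex V match, is now known as DMAC2, a complex I assembly protein and no ATP synthase subunit. It had a density of 19.4, 17.4, 20.2, 12.3 and 11.3 FPKM and was called lower in TE at 6 h and 19 h as well.

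In complex I, TE declined most in the part that oxidizes NADH and in the membrane arm. The N module, which oxidizes NADH (8 genes), had a median TE change of -0.48 at 19 h, and the membrane arm (17 genes) -0.34. The Q module, which hands electrons to ubiquinone (7 genes), stood at -0.039, and 0 of its 7 genes were called in TE at 19 h. At 6 h the medians were -0.49 for the N module, -0.29 for the membrane arm and 0.015 for the Q module, where NDUFA9 was called lower (-0.72 ± 0.097) and NDUFS7 higher. The 7 nuclear core subunits, which carry the flavin and iron-sulphur clusters across both modules, had a median of -0.099 at 19 h. These differences between modules were not tested.

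Among the core subunits, NDUFV2, an N module iron-sulphur protein, was the one called lower at 19 h. Its RNA was 62.5, 53.2, 57.2, 59.1 and 48.05 FPKM and its density 135, 90.8, 132, 85.3 and 66.8 FPKM, a density change of -1.02 ± 0.075 and a TE change of -0.64 ± 0.094. NDUFS1, the largest core protein, had 45.4, 44.2, 38.4, 35.5 and 31.7 FPKM in density and a TE change of -0.44 ± 0.083. NDUFV1, which binds NADH and flavin, had 74.6, 74.9, 71.5, 67.4 and 66.02 FPKM in density and a TE change of -0.099 ± 0.079. NDUFV2 and NDUFV1, neighbours in the same module, thus differed, with the lowest densities at 19 h in both. The Q module core genes NDUFS3 and NDUFS8 had TE changes of -0.22 ± 0.10 and -0.014 ± 0.073 at 19 h. NDUFS7, the core protein nearest the quinone site and the least abundant of the tested complex I transcripts, had an RNA level of 5.22, 5.87, 5.52, 5.64 and 6.40 FPKM and a density of 22.7, 22.5, 31.2, 37.2 and 31.3 FPKM. It was the only member called higher in TE at 6 h, with 0.60 ± 0.11, and stood at 0.17 ± 0.11 at 19 h.

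At 19 h the lowest and the highest TE change of complex I were both in accessory genes. NDUFB1, a small membrane arm subunit, had 49.1, 41.8, 46.6, 53.6 and 44.4 FPKM in RNA and a density of 167, 117, 117, 81.6 and 74.6 FPKM. Its TE fell by log2 changes of -1.16 ± 0.11 at 6 h and -1.01 ± 0.12 at 19 h, to 0.495 of control. NDUFA1, another short membrane arm subunit, fell in TE at 19 h, by a log2 change of -0.91 ± 0.095, with RNA of 52.2, 49.9, 51.6, 68.9 and 58.1 FPKM. Its density was 166, 122, 167, 125 and 98.4 FPKM, and in both genes the 19 h library held the lowest density. NDUFS6, a zinc protein of the N module, had 48.6, 41.8, 45.8, 53.2 and 42.2 FPKM in RNA and a density of 137, 144, 165, 182 and 165 FPKM, higher in every treated library than in control, with a TE change of 0.47 ± 0.11 at 19 h, the highest in complex I at that time. NDUFS5, the most abundant complex I transcript, had 116, 109, 119.9, 154 and 126 FPKM in RNA and 306, 215, 338, 314 and 222 FPKM in density. NDUFB6 was called higher in TE at 4 h (0.64 ± 0.081) and had the lowest RNA change of complex I at 19 h (-0.39 ± 0.072). NDUFC1 had the largest RNA increase, 22.1, 19.2, 20.4, 30.1 and 31.7 FPKM, and its density of 51.3, 43.1, 53.4, 66.4 and 65.3 FPKM went with it, leaving a TE change of -0.17 ± 0.11.

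2 complex I matches were too low to test. NDUFC2 had 9.48, 9.17, 9.74, 11.2 and 9.41 FPKM in RNA and 2.63, 1.21, 2.97, 1.18 and 0.513 FPKM in density, and NDUFA4L2, a paralogue of NDUFA4 known from hypoxia, was below 1 FPKM in all 10 libraries. NDUFA4 was counted here with complex I by its symbol, although its protein is now assigned to complex IV. Its RNA was 38.5, 35.9, 38.2, 50.4 and 45.3 FPKM and its density 91.7, 62.9, 90.1, 64.1 and 54.7 FPKM, and TE fell by log2 changes of -0.90 ± 0.065 at 6 h and -0.98 ± 0.071 at 19 h.

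**Figure D4:**
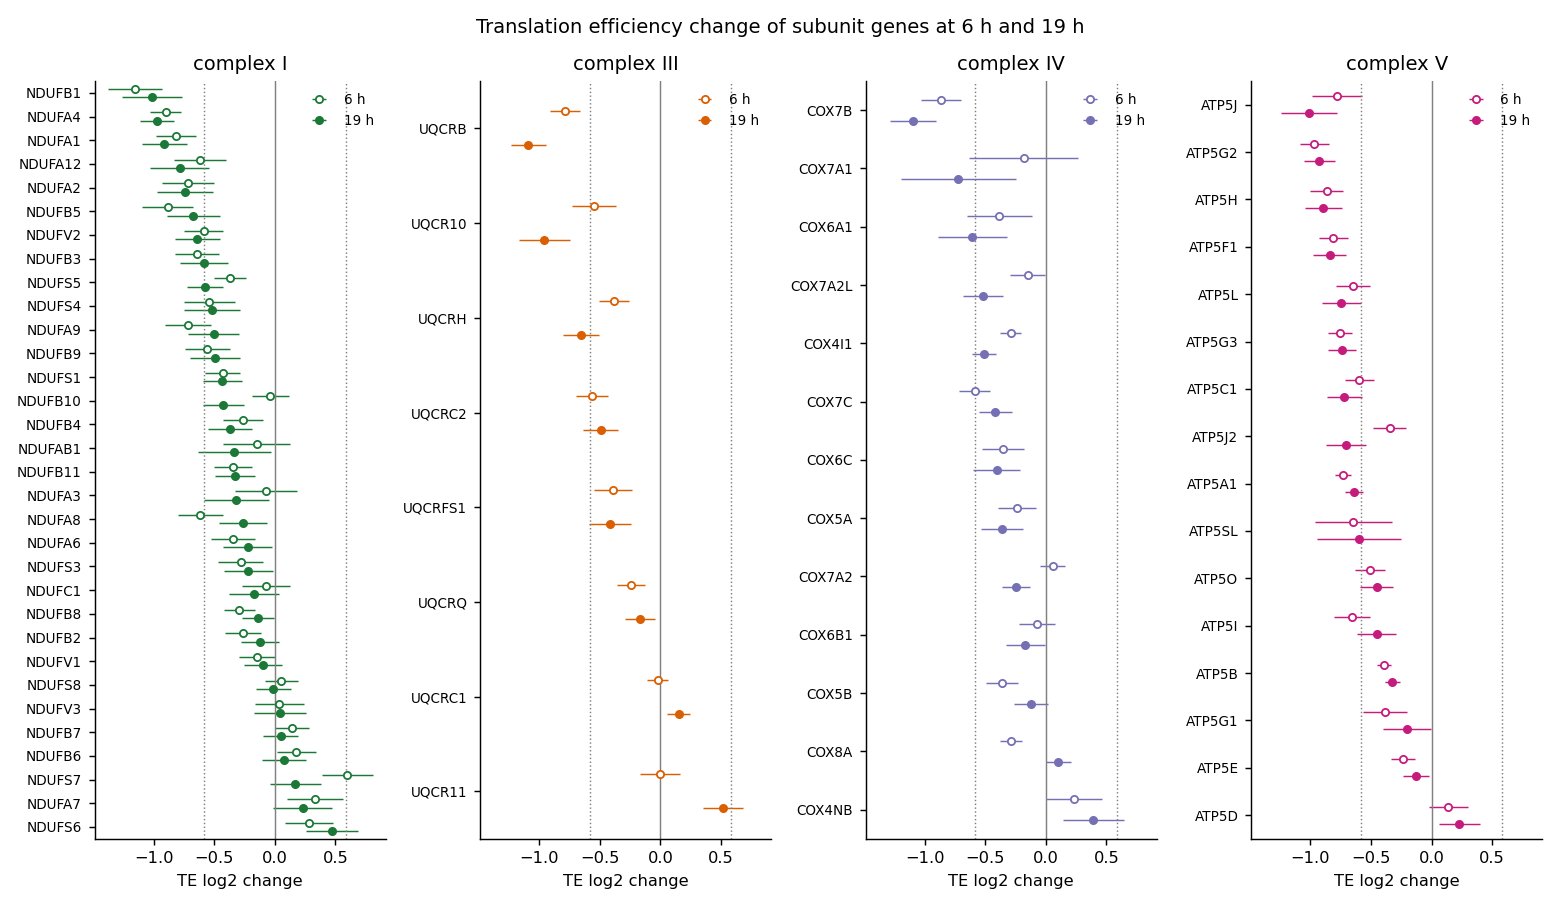
TE log2 change against control (horizontal axis) of 69 of the 70 tested members, by complex, at 6 h (open circles) and 19 h (filled circles); horizontal lines are 95% counting intervals and dotted lines mark 1.5-fold. In complex V only ATP5D lies above 0 at 19 h, while complex I spreads from NDUFB1 at -1.01 to NDUFS6 at 0.47.

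Complex III split between its small subunits. UQCRB, which binds ubiquinone beside cytochrome b, had 60.2, 52.6, 62.2, 75.1 and 62.9 FPKM in RNA and a density of 284, 194, 299.7, 205 and 139 FPKM. Its TE fell by log2 changes of -0.79 ± 0.064 at 6 h and -1.09 ± 0.073 at 19 h. UQCR10, among the smallest subunits, had 67.3, 69.7, 73.3, 88.1 and 76.95 FPKM in RNA and a density of 226, 158, 326, 202 and 133 FPKM, highest at 4 h and lowest at 19 h, and TE fell by log2 changes of -0.96 ± 0.11 at 19 h. UQCR11, also a very small subunit, had 41.2, 36.6, 39.4, 51.4 and 46.1 FPKM in RNA and a density of 57.1, 56.2, 71.4, 70.9 and 91.3 FPKM. It was the 1 member called higher in density at 19 h (0.68 ± 0.067), and its TE change was 0.52 ± 0.086. Of the large core proteins, UQCRC1 had 150.1, 154, 166, 179.8 and 169.5 FPKM in density and a TE change of 0.15 ± 0.048, and UQCRC2 -0.49 ± 0.074. The Rieske iron-sulphur protein gene UQCRFS1 had the lowest RNA change of complex III at 19 h, -0.32 ± 0.050, with density of 92.03, 69.03, 89.04, 63.4 and 55.3 FPKM.

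UQCRH, the hinge protein that helps cytochrome c bind, was the most abundant complex III transcript at 118, 109, 122, 151 and 115 FPKM. Its density was 312, 301.01, 491, 308 and 194 FPKM, highest at 4 h and lowest at 19 h. TE rose by 0.60 ± 0.062 at 4 h and fell by a log2 change of -0.66 ± 0.075 at 19 h.

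In complex IV, COX8A and COX4I1 had the highest ribosome density of all members in control. COX4I1, the regulatory subunit that binds adenine nucleotides, had 227, 210.0, 226, 259.6 and 222 FPKM in RNA and a density of 528, 472, 604, 495 and 363 FPKM, with a TE change of -0.51 ± 0.051 at 19 h. COX8A had 277, 257, 279.6, 281 and 221 FPKM in RNA and 766, 732, 747, 635 and 655 FPKM in density, and its TE change was 0.10 ± 0.051. COX4I1 thus had its lowest density at 19 h and COX8A its lowest RNA. COX7B, a small subunit, had the lowest TE change of all 70 members at 19 h, with 21.2, 18.95, 21.3, 24.8 and 21.8 FPKM in RNA and a density of 47.9, 26.4, 52.6, 30.7 and 23.04 FPKM. Its TE fell by log2 changes of -0.70 ± 0.087 (2 h), -0.87 ± 0.084 (6 h) and -1.10 ± 0.097 (19 h) and was 0.13 ± 0.077 (4 h). Its density at 2 h was below that at 6 h, so its density change at 6 h turned from -0.64 against the control to 0.22 against the 2 h library. COX5B, which binds zinc on the matrix side, was the complex IV gene with the highest density change at 19 h, 0.032 ± 0.045.

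Several complex IV subunits have tissue-specific forms. COX4I2, expressed mainly in lung, and the heart and muscle gene COX6A2 were not analysed here, and COX6B2, a testis gene, was listed in RNA-Seq alone at 0.35 to 0.93 FPKM. COX6A1 had 15.4, 17.3, 19.1, 21.6 and 19.2 FPKM in RNA and 216, 186, 282, 232 and 176 FPKM in density, the highest ratio of density to RNA of all members in control, and TE fell by log2 changes of -0.61 ± 0.15 at 19 h. A near-identical copy, COX6A1P2, was listed in RNA-Seq alone at 0.39 to 1.00 FPKM. COX6B1 had 421, 407, 457, 481 and 413 FPKM in density and a TE change of -0.17 ± 0.080. The muscle form COX7A1 was present at 5.06, 4.63, 5.26, 6.53 and 6.90 FPKM in RNA and 30.8, 24.3, 42.2, 34.9 and 25.4 FPKM in density, and its TE fell by log2 changes of -0.72 ± 0.24 at 19 h, with the widest counting error of the members. The common form COX7A2 had 76.9, 64.6, 70.7, 92.6 and 76.3 FPKM in RNA and 466, 399.7, 612, 583 and 389 FPKM in density, with a TE change of -0.25 ± 0.060. The difference between both forms at 19 h, -0.48, had a counting interval that included 0 (-0.97 to 0.015). COX7A2L, which helps join complexes III and IV into supercomplexes, had a density of 33.4, 32.6, 51.1, 39.8 and 26.7 FPKM and TE changes of 0.52 ± 0.071 at 4 h and -0.52 ± 0.085 at 19 h. COX4NB, now EMC8 of the endoplasmic reticulum, shares only its name, and had the lowest RNA change of all members at 19 h with a TE change of 0.39 ± 0.13.

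**Figure D5:**
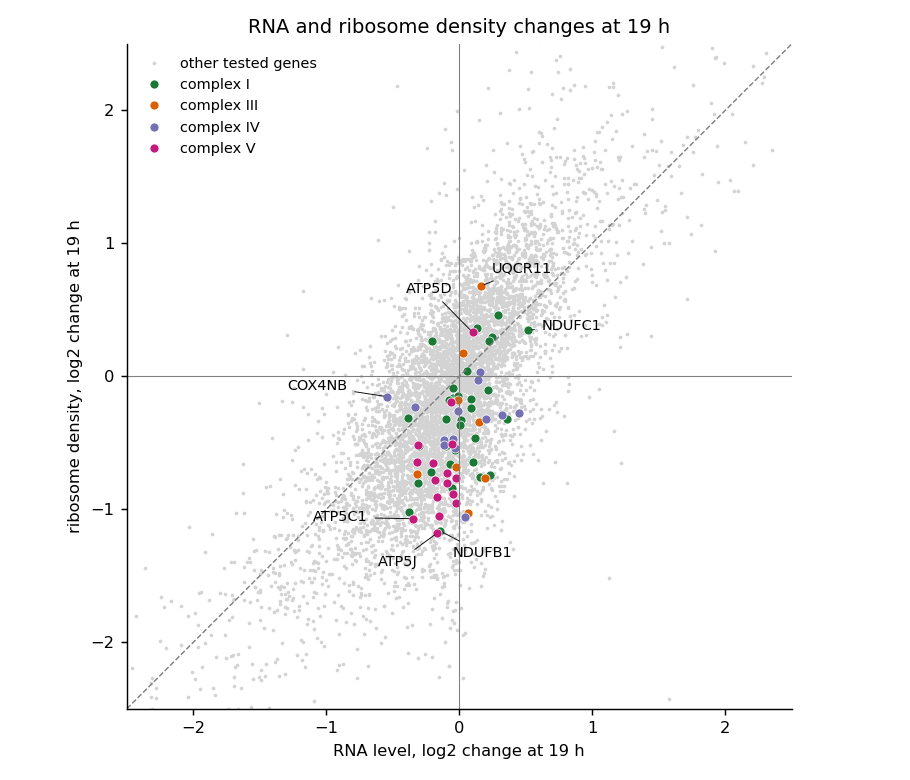
Log2 change at 19 h in ribosome density (vertical axis) against RNA level (horizontal axis); grey points are other tested genes, coloured points the subunit genes by complex, and the dashed line marks equal change, on which TE does not change. The members form a vertical band between -0.54 and 0.52 in RNA that reaches from -1.18 (ATP5J) to 0.68 (UQCR11) in density, and 254 genes lie outside the frame.

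The start sites of the subunit genes were looked at in RefSeq promoters (GRCh38.p14, 250 bases before and 50 from the annotated start). As background, mRNAs of cytosolic ribosomal proteins begin with a C and a run of pyrimidines, through which mTOR signalling controls their translation. 57 of the 70 members matched a promoter through their current symbols (ATP5G2 is now ATP5MC2, for instance), as did 5770 of 7015 tested genes. A start at C followed by an unbroken pyrimidine run of 5 or more bases in all was found in 9 of 57 members (15.8%), 6.72% of tested genes, 4.04% of all 27305 promoters and 61.3% of 62 cytosolic ribosomal protein genes. 4 of the 9 are among 12 matched complex V genes and 3 among 11 of complex IV. The windows are shown from 10 bases before to 20 bases from the annotated start, 5′ to 3′, with the run in capitals, to let the starts be compared with the TE changes.
ATP5G2 (chr12:53676064-53676093, minus strand): cgctgctccgCCCCTCTCTgtcttctctgc
ATP5O (chr21:33915785-33915814, minus strand): gcgcgtttctCTCTTCCCactcgggtttga
ATP5L (chr11:118401596-118401625, plus strand): tgcagcgggtCCTTCCggcgggtgacattc
ATP5E (chr20:59032316-59032345, minus strand): gtggtctgatCTTCCTgcggctgaaccgcc
COX4I1 (chr16:85799685-85799714, plus strand): cggccttgctCTCTTCCggtcgcgggacac
COX7C (chr5:86617931-86617960, plus strand): tcccatctttCTTTTCagtccttgcgcacc
COX7A2L (chr2:42361198-42361227, minus strand): gaggcggggtCCTTCTCTggggcggtcgcg
UQCRH (chr1:46303688-46303717, plus strand): cttacaagtcCTTCTTgatcctgaactggg
NDUFC1 (chr4:139302532-139302561, minus strand): atgggccccaCCTCCCgagaagagtgacgg

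COX7B, NDUFB1, ATP5J and UQCR10, whose TE changes at 19 h were among the lowest, have no such run at their annotated start and are shown for comparison. ATP5G1, a c subunit gene without a run that was not called in TE at 6 h or 19 h, is shown as well. The C start of ATP5J, shorter than the minimum, is also in capitals.
COX7B (chrX:77899458-77899487, plus strand): aagccattttgtttttcagctcacttcaag
NDUFB1 (chr14:92121687-92121716, minus strand): cgcagcttccactggcgcgggttgagttcc
ATP5J (chr21:25735035-25735064, minus strand): cttcctcctcCTgtttggcttctgtctcac
UQCR10 (chr22:29767359-29767388, plus strand): cagcgcaggcgcggtggcgcgagttggact
ATP5G1 (chr17:48892777-48892806, plus strand): gagaaggtccaggacacgtgggtgggggaa

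The 9 members with a run had a median TE change of -0.51 at 19 h and -0.38 at 6 h, and the 48 without one -0.35 and -0.35. Over all tested genes with a promoter the medians at 19 h were -0.28 with a run and -0.063 without. Within complex V the medians with and without a run were -0.58 and -0.69 at 6 h and -0.60 and -0.68 at 19 h. In complex IV they were -0.29 and -0.26 at 6 h and -0.51 and -0.21 at 19 h, and complexes I and III had 1 gene with a run each. ATP5G2 has the longest run of the 9 and ATP5G1 has none, and TE was called lower for ATP5G2 and not for ATP5G1. The third c subunit gene, ATP5G3, was called lower as well but is not among the members matched to a promoter. ATP5O, with a run of 8 bases, was not called at 6 h (-0.51) or 19 h (-0.45). NDUFC1 and ATP5E carry runs of 6 bases with TE changes of -0.17 and -0.13 at 19 h. Members with a run thus lay on both sides of the members' median. Start sites were not measured here, and annotated starts can lie some bases from those used in these cells.

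Letters recognised by the nuclear regulators of respiratory genes were counted in the same promoters on both strands. GCGCATGC, the core of NRF1 sites, occurred in 11 of 57 members (19.3%), in 6.17% of tested genes and in 3.27% of all promoters. CCGGAAG, bound by ETS factors such as GABPA, occurred in 17 members (29.8%), 22.5% of tested genes and 10.7% of all promoters. AAGATGGC, the core of YY1 sites, occurred in 9 members (15.8%), 6.59% and 3.03%. At least 1 of these 3 was in 30 of 57 members (52.6%), 31.3% of tested genes and 15.6% of all promoters. TATAAA was found in 8.77% of members, 4.94% of tested genes and 11.95% of all promoters, and AAGGTCA, read by ERR receptors, in 8.77%, 2.24% and 3.97%. For CCAAT the shares were 35.1%, 37.7% and 35.7% and for the GC box GGGCGG 61.4%, 73.7% and 44.6%. 4 windows with these letters in capitals are shown for genes named above.
ATP5C1 (chr10:7788146-7788175, plus strand): ggagcttcggcGCATGCGCgctgaggcctg
NDUFS6 (chr5:1801350-1801379, plus strand): ccagaagccgtGCGCATGCgttagcgctaa
COX4I1 (chr16:85799686-85799715, plus strand): ggccttgctctCTTCCGGtcgcgggacacc
ATP5F1 (chr1:111449451-111449480, plus strand): acttgtgagcgGCCATCTTggtcctgccct

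The COX4I1 window overlaps the promoter of COX4NB, which is read from the opposite strand, and the same ETS letters count for both genes. Members with NRF1 letters had a median TE change of -0.37 at 19 h and those without -0.42, and the presence of letters says nothing of binding.

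Genes that act with the subunits gave mixed values. In complex II, the succinate dehydrogenase, SDHA had 72.2, 70.5, 77.5, 74.8 and 71.7 FPKM in RNA and 62.5, 75.1, 73.2, 81.4 and 73.2 FPKM in density, higher than control at every treated time. The iron-sulphur gene SDHB had 111, 100.1, 139, 105 and 73.1 FPKM in density and the membrane anchor SDHD 92.4, 76.01, 69.8, 65.9 and 58.4 FPKM. Both were called lower in density at 19 h, as were 29.8% of all tested genes. SDHC had a density of 84.5, 71.9, 89.7, 85.4 and 75.5 FPKM, and 0 of the 4 were called in TE at any time, with a median of -0.36 at 19 h. Cytochrome c itself, CYCS, was called lower in RNA at 19 h, with 36.03, 33.3, 33.00, 31.5 and 22.2 FPKM. Its density was 35.1, 29.6, 41.4, 22.7 and 13.4 FPKM, a change of -1.39 ± 0.078 at 19 h. Cytochrome c1, CYC1, had 74.4, 69.1, 70.5, 66.6 and 53.03 FPKM in RNA and a TE change of 0.28 ± 0.074. Of 7 carriers and subunits whose symbols the rule misses, 4 were called lower in TE at 19 h, where the background was 15.6%. Among them were the ATP synthase subunit USMG5 with -1.25 ± 0.13 and HIGD1A, a complex IV and III assembly partner, with -1.03 ± 0.14.

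SCO2, which delivers copper to complex IV and is a known p53 target, had 17.8, 15.2, 14.5, 15.9 and 13.2 FPKM in RNA and 24.4, 30.9, 30.3, 34.9 and 31.6 FPKM in density. Its RNA was lower than control in every treated library and its TE rose by 0.80 ± 0.16 at 19 h, the highest value among 30 tested assembly factors. In that list 6 genes were called lower and 1 higher in TE at 19 h, with a median of -0.22, and 3 lower and 0 higher in RNA. Of 14 tricarboxylic acid cycle genes, 3 were called lower in RNA and 2 in TE at 19 h, with medians of -0.29 and -0.27. The background shares at 19 h for both lists were 14.6% lower and 7.13% higher in RNA, and 15.6% lower and 9% higher in TE. Among 13 regulators of mitochondrial biogenesis, 4 were called lower in RNA at 19 h, where the background was 14.6%. TFAM, which packages and helps transcribe mitochondrial DNA, had 7.89, 8.32, 7.34, 5.26 and 4.33 FPKM in RNA, a change of -0.87 at 19 h. NRF1, a transcription factor of respiratory genes, had 6.44, 6.85, 5.21, 3.50 and 3.08 FPKM, a change of -1.06. Both were called lower in RNA at 19 h, where no subunit gene was. PPARGC1A, the coactivator of mitochondrial biogenesis, was not analysed here.

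Other large assemblies were set beside the subunits. The 72 tested mitochondrial ribosomal protein genes had median TE changes of -0.29 at 6 h and -0.33 at 19 h, with 16 called lower at each time, and the 38 proteasome subunits -0.33 and -0.25, with 8 called lower at each time. The 78 cytosolic ribosomal protein genes stood lower at -1.01 and -1.31, with 68 and 74 called lower. The background shares called lower in TE were 12.3% at 6 h and 15.6% at 19 h. The median RNA change at 19 h was -0.18, -0.22 and -0.040 in these 3 groups. Complex V, at -0.65 and -0.68 in TE, lay below the mitochondrial ribosomal proteins and the proteasome subunits and above the cytosolic ribosomal proteins. Complex I, at -0.29 and -0.33, lay level with the mitochondrial ribosomal proteins. Complexes III and IV stood at -0.39 and -0.29 at 6 h and -0.45 and -0.41 at 19 h. Median lengths were 1079 nt for complex V, and 1365, 1458 and 886 nt for the mitochondrial ribosomal, proteasome and cytosolic ribosomal genes.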

How the data were processed

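RNA-Seq and Ribo-Seq libraries of BJ cells were analysed from the FPKM values deposited by the authors. According to the study's methods and the submitters' processing notes, which name Bowtie and hg19, reads were aligned to 1 transcript per protein-coding gene (Ensembl release 65) and unique hits were kept. Aligner versions are not given in the sources used here. The table whose name is not that of Ribo-Seq alone was read as RNA-Seq. Ribo-Seq columns are labelled total although the methods describe coding-sequence reads, so which region was counted is uncertain.

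Symbols, transcripts and values were joined in Python 3.11.15 with pandas 2.3.3 and numpy 2.4.6. Values were floored at 1 FPKM, changes are log2 ratios to the control of the same assay, and TE is log2 of Ribo-Seq over RNA-Seq. Genes with at least 5 FPKM in 1 library of each assay were tested, and 1.5-fold was the call. Read totals and transcript lengths were recovered from the spacing of low FPKM values (lengths for 99.4% of 11258 transcripts), checked on simulated data, and gave counting errors and 95% intervals, which cover counting error only.

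Named members were, per complex, the 2 lowest and the highest change at 19 h in each measure, the most and least abundant transcripts, and fixed isoform, F1 and core subunit genes, of which 1 is not reported here by name. ATP5F1, ATP5H, NDUFA1, UQCRC1, UQCRC2, NRF1, USMG5 and HIGD1A were named after their values were seen. Members and lists were chosen with earlier results of these data known. Alternatives were another floor, a pseudocount, other filters, centring, removal of the length trend, core subunits alone, the 2 h baseline and other calls.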

Additional observations from a re-analysis of the deposited data

Results flagged for a closer look

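Complex V, like the other complexes, differed in the sign of its RNA change between times. Relative to all tested genes, its median RNA change was -0.11 at 2 h and 0.12 at 6 h, and no single gene of it was called at either time. The medians at 2 h and 6 h were -0.057 and 0.15 for complex I, -0.074 and 0.31 for complex III and -0.080 and 0.23 for complex IV. Complex V was flagged because it alone passed 0.1 in both directions. UQCRH, the hinge protein of complex III, was called higher at 4 h and lower at 19 h. Its ribosome density change was 0.65 at 4 h and -0.69 at 19 h, and TE stood at 0.60 (4 h) and -0.66 (19 h). These differences between times were not tested, since each time has 1 library per assay.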

How the results depend on the processing

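Of 93 medians under alternatives, 78 moved by less than the counting interval of a median member and 15 moved by more. From the 2 h library, the members' median RNA change at 4, 6 and 19 h was 0.087, 0.32 and 0.0999, the density change 0.35, 0.038 and -0.20, and the TE change 0.26 at 4 h. After centring, density was -0.044 at 4 h and -0.28 at 19 h and TE -0.082 at 4 h. With the length trend removed, density was -0.081 at 2 h, -0.025 at 6 h and -0.25 at 19 h. Over all tested genes it was then 0.025, -0.024 and -0.19. TE was -0.13 at 6 h and -0.24 at 19 h, beside 0.017 and -0.063 over all tested genes. Of 3438 values of named members under alternatives 2983 stayed within their counting interval, 454 moved, and 1 that was called changed sign, the COX7B density change at 6 h, which was 0.22 from the 2 h library. Counting values short of the call as well, 174 changed sign, 72 of them from the 2 h library. Of 114 counts of calls under alternatives, 66 were within 1.5 times the main count and 48 were not. At 2-fold, density was called lower for 0, 1 and 7 members at 2, 6 and 19 h (0.128%, 8.04% and 14.9% of tested genes) and higher for 0 at 4, 6 and 19 h, and TE lower for 0, 1 and 4 at 2, 6 and 19 h and higher for 0 at 4 h and 6 h. With the study's sliding cut-off by level, density was called lower for 1 member at 2 h and 0 at 6 h and 19 h and higher for 1, 0 and 0 at 4, 6 and 19 h, and TE lower for 2, 2 and 3 at 2, 6 and 19 h (1.87%, 3.02% and 5.32% of tested genes, and for density 1.45%, 4.55% and 5.23%) and higher for 6 at 4 h and 0 at 6 h. After centring, density was called lower for 3 at 4 h and 14 at 19 h and higher for 0 at 4 h and 2 at 19 h, TE lower for 2 at 2 h and 3 at 4 h and higher for 0 at 4 h, and RNA higher for 1 at 19 h. From the 2 h library, density was called lower for 1 at 6 h and 5 at 19 h and higher for 14, 2 and 2 at 4, 6 and 19 h, TE lower for 6 at 6 h and 5 at 19 h and higher for 6 at 4 h, and RNA higher for 1 at 6 h and 1 at 19 h. The counts with the length trend removed were added once the data had been seen, and there density was called lower for 6 at 6 h and 16 at 19 h (18.7% and 29.6% of tested genes) and higher for 4 and 4, and TE lower for 9 and 12 and higher for 2 and 2. The cause of these shifts was not tested. No paired analysis was possible because each time had 1 library per assay and no result comes from a test. Ribo-Seq depth was lowest at 19 h, and with 1 library per time the spread between cultures limits every value here and could not be measured.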
